A study of Mus musculus with 8 samples.

Results

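Expression of 43 genes of inflammatory signalling was compared between dorsal skin lacking the glucocorticoid receptor and skin that has it. The members were chosen by name from a list of 44 cytokines, chemokines, adhesion molecules, components and targets of the transcription factor NF-kB, and matrix-degrading enzymes, and a member's values come from whichever of the probe sets annotated to it alone had the highest mean on the 8 arrays. They are 43 of the 18193 genes so measured. Nfkb1 was not analysed here. GR-/- embryos (4 arrays, label numbers 5, 17, 25 and 26) lack the receptor, which is encoded by Nr3c1. GR+/+ littermates (4 arrays, 4, 6, 28 and 29) carry it. All were B6D2/F1 embryos taken at embryonic day 18.5, untreated as far as the labels say. The labels give neither the disrupted allele nor any restriction of the loss to a cell type, so effects in blood, vessels and immune cells are not separated from those in skin cells. They name no litters and do not state that every array came from a different embryo, so p-values measure the spread between these samples. Values are log2 expression values made by RMA (robust multi-array average), a difference of 1 is a 2-fold difference, and all fold changes are GR-/- minus GR+/+.

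NF-kB is held in the cytoplasm by inhibitory proteins, and on signals such as TNF or bacterial products it enters the nucleus and switches on genes for chemokines, cytokines and endothelial adhesion molecules. Chemokines are small secreted proteins that draw leukocytes along a gradient, and selectins and the ligands of integrins let those cells stop on the vessel wall. The ligand-bound glucocorticoid receptor is known to repress many of these genes and to induce inhibitors such as IkB-alpha (Nfkbia) and A20 (Tnfaip3). The comparison asks whether loss of the receptor lifts that repression in skin shortly before birth.

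The genotype labels and the tissue were checked first. Nr3c1 read 7.66, 8.01, 8.19 and 7.97 log2 in the GR-/- arrays, against 9.93, 9.68, 9.74 and 9.92 in the GR+/+ arrays at its second brightest probe set, a difference of -1.86 ± 0.12 (SE, limma adjusted p = 0.000831). It fell at 3 of its 6 probe sets, the brightest included (-0.84 ± 0.11). The labels do not say which exons were disrupted. Of 9 listed genes known to depend on the receptor, 4 fell and 0 rose, where 1.56% and 1.40% of all genes did. The list was chosen with earlier results of these data known. On the log2 scale the zinc finger factor Zbtb16 fell by 2.55, the co-chaperone Fkbp5 fell by 2.11, the clock gene Per1 fell by 1.27 and the transcription factor Klf9 fell by 1.18. Zbtb16 and Fkbp5 kept their calls without any 1 array, whereas Per1 lost its call in 4 of 8 such fits and Klf9 in 7 of 8. The other 5 listed genes did not pass. Fold changes were negative for Tsc22d3 (-0.70), Dusp1 (-0.37) and Il1r2 (-0.007), and positive for Anxa1 (0.27) and Sgk1 (0.21). The means of keratinocyte and fibroblast markers were 13.24 to 13.49 in GR-/- and 13.23 to 13.61 in GR+/+ arrays, and 13.57 to 13.75 in GR-/- and 13.50 to 13.70 in GR+/+ arrays. The keratinocyte mean hides opposite changes, since of its 6 markers 1 passed as higher (0.60) and 1 as lower. Of the 6 fibroblast markers 0 passed. For 10 skeletal muscle markers the mean was 11.88 to 12.51 in GR-/- and 12.58 to 12.77 in GR+/+ arrays, lower in every GR-/- array than in any GR+/+ array and, among GR-/- arrays, highest in GR-/- 17. With that mean as a covariate, which separates the genotypes, limma called 3 genes in all, against 539 without it, so a call lost under it does not tell muscle from genotype. In such bulk samples fewer cells of a type and less RNA per cell cannot be told apart.

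None of the 43 inflammatory genes passed the threshold in GR-/- skin. Limma, with Benjamini-Hochberg adjustment over all genes, called 0 higher and 0 lower at an adjusted p below 0.05, where 1.40% of all genes were higher and 1.56% lower (2.96% in all). Before adjustment, 4 members were higher at p below 0.05 and 0 were lower, against 10.5% and 11.1% of all genes (21.6% in all). These 4 were the epithelial cytokine gene Tslp and the chemokine genes Ccl2, Ccl11 and Cxcl12. Fold changes were positive for 25 members (58.1%, against 48.7% of all genes) and negative for 18, with a median of 0.047, beside a median of -0.0045 over all genes. The groups did not overlap in 1 member, Tslp, or 2.33%, against 6.69% of all genes that were higher without overlap, and in 0 members that were lower, against 6.30%.

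The size of change that these arrays left possible was small for most members, as it was for most genes. At their brightest probe sets, 41 of 43 members (95.3%) had a 95% interval of the fold change within 2-fold either way. For 37 (86.0%) it was within 1.5-fold, compared with 94.8% and 78.8% of all genes. The exceptions at 2-fold were the chemokine gene Ccl3, at 0.995 (95% interval -0.11 to 2.10), and Socs3, at -0.44 (95% interval -1.19 to 0.31). At dimmer probe sets, intervals of Vcam1 (the second and the third), Nfkbia (the fifth) and Socs3 (the second) also went past 2-fold. Signal level limits this reading. Of the members, 29 had a mean below the median of all probe sets, where RMA compresses differences, and 14 lay above it. Among the 29 dimmer members 3 were higher at an unadjusted p below 0.05, against 3.87% of all dim genes (9.30% in either direction), and among the 14 brighter members 1 was, against 14.4%. No detection calls were used here, so a low value may be background rather than transcript.

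**Figure D1:**
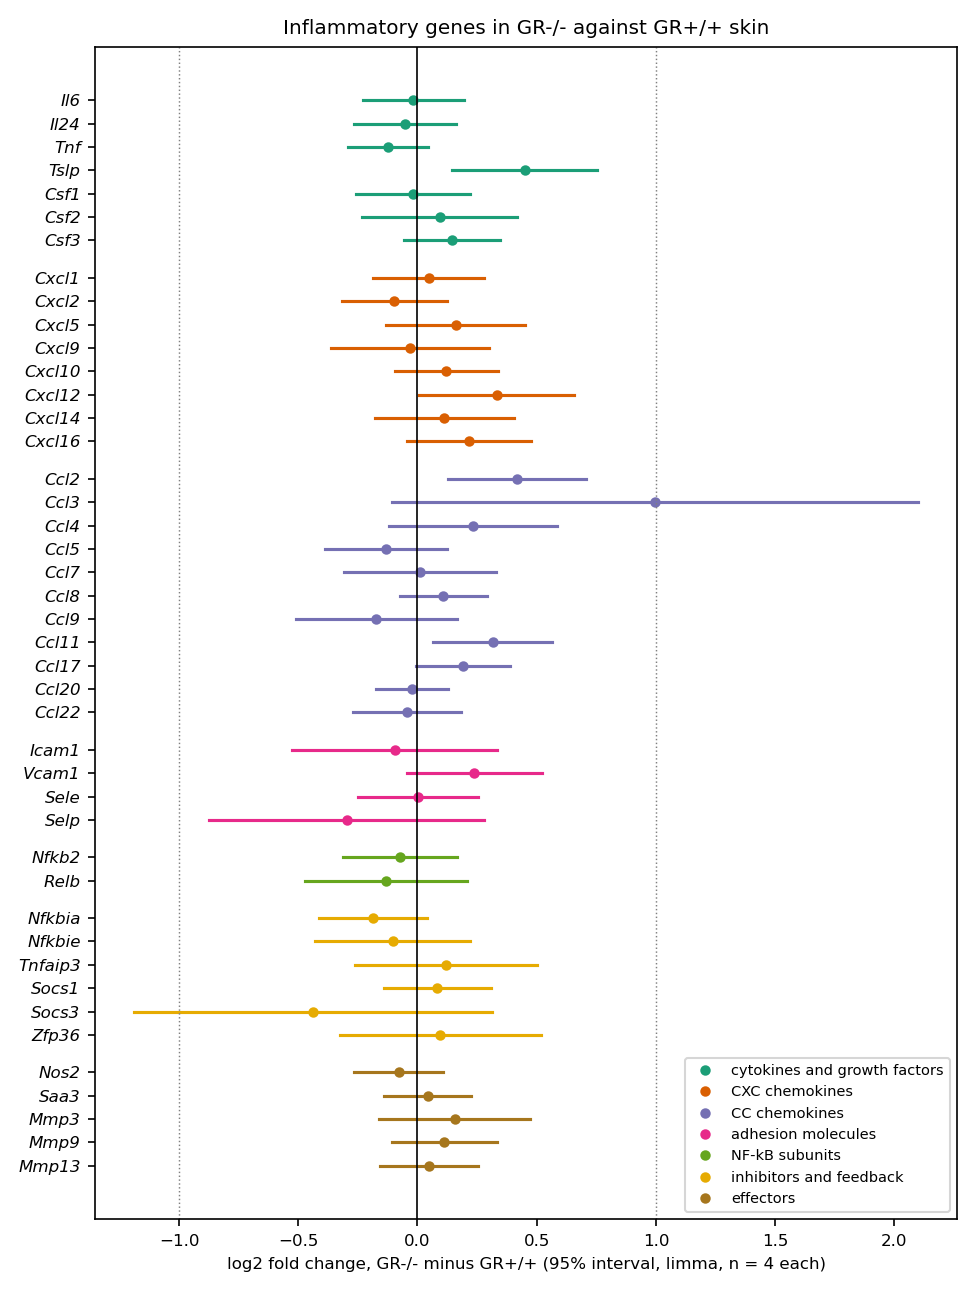
Log2 fold change (GR-/- minus GR+/+, x axis) of the 43 members, grouped by role, with 95% intervals from limma (n = 4 arrays per group); dotted lines mark 2-fold. Most intervals cross 0 and stay inside the dotted lines, and that of Ccl3 is the widest, from -0.11 to 2.10.

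NF-kB motifs were common in the members' promoters. The members were chosen by name partly as components and targets of NF-kB, so a high share of its motifs follows from that choice. The shares given here describe the list and are no result of the comparison of genotypes. RefSeq promoters (GRCm38.p6) were found for 29 of the 43 members, and the 250 bases before each start were searched on both strands. The NF-kB consensus was present in 11 of the 29 (37.9%), against 8.23% of 27025 genes with a promoter. A stricter form contained in it, spelled by the capitals in the sequences printed here, read on either strand, was present in 6 (20.7%), against 0.414% of genes. These 6 were Csf1, Cxcl1, Cxcl2, Il6, Nfkb2 and Nfkbia. An AP-1 site, TGANTCA, was present in 10 members (34.5%) and in 7.82% of genes. The full receptor palindrome, an inverted repeat of AGAACA with 3 bases between, was in 0 of the 29 windows and in 3 of 27025 genes. The promoters of 4 genes that hold the stricter NF-kB form are printed 5′ to 3′ in the gene's direction, with that match in capitals on whichever strand it lies. They were chosen because they belong to a growth factor, a pair of neighbouring chemokine genes and the inhibitor whose levels are described in the paragraphs on each role. Nfkbia lies at chr12:55492648-55492897 on the minus strand, with the match 29 to 20 bases before the start. The window of Csf1 is chr3:107760470-107760719 on the minus strand, with the match at 154 to 145 bases. Cxcl1 (chr5:90890995-90891244 on the plus strand) and Cxcl2 (chr5:90903649-90903898 on the plus strand) have it at 71 to 62 and 97 to 88 bases.
Nfkbia: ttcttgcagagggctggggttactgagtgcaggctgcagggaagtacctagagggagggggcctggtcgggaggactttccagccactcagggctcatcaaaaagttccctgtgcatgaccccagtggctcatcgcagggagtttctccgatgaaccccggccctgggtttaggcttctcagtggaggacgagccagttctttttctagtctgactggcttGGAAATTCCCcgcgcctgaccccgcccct
Csf1: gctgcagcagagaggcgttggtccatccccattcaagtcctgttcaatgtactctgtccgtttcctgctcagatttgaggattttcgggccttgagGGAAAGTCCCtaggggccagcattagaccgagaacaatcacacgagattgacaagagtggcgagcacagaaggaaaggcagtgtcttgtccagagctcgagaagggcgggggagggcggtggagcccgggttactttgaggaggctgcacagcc
Cxcl1: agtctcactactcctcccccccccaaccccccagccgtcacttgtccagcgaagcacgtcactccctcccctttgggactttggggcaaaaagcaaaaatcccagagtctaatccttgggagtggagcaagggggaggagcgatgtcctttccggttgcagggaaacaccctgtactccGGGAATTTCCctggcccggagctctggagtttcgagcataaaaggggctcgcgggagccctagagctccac
Cxcl2: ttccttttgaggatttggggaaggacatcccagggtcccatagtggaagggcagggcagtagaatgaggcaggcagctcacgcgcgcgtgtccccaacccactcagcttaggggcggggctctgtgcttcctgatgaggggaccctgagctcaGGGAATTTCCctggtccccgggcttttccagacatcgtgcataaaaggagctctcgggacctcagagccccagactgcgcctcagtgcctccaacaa

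The fold changes of members with the match lay within the range of those without it. The 6 with the stricter NF-kB form had a median of -0.05, with values between -0.19 and 0.05, and the others with a promoter had a median of 0.05. For the wider NF-kB consensus the medians were -0.02 with it and 0.07 without it. A match of letters is a description of the window and says nothing of binding in skin.

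Among the cytokines and growth factors, Tslp had the smallest p of all members. Tslp encodes thymic stromal lymphopoietin, a keratinocyte cytokine that acts on dendritic and mast cells and is known from atopic skin. It read 5.21, 5.31, 5.14 and 5.03 log2 in GR-/- 5, 17, 25 and 26, against 4.82, 4.76, 4.34 and 4.98 in GR+/+ 4, 6, 28 and 29. Every GR-/- array lay above every GR+/+ array, the nearest being 5.03 in GR-/- 26 and 4.98 in GR+/+ 29, and GR+/+ 28 was the lowest of all. The difference was 0.45 ± 0.14 (SE, adjusted p = 0.101), a 1.37-fold difference that did not pass after adjustment over all genes. The values are in the dim part of the array's range.

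The classical NF-kB cytokines did not pass the threshold. Tnf, the tumour necrosis factor gene, read 6.34, 6.26, 6.28 and 6.45 log2 in the GR-/- arrays, against 6.49, 6.37, 6.46 and 6.51 in the GR+/+ arrays. Its GR-/- values lay mostly below the GR+/+ ones but overlapped with GR+/+ 6, and the difference was -0.12 ± 0.07 (SE, adjusted p = 0.386), or -0.21 with the muscle covariate. Il6, the gene of the acute-phase cytokine interleukin-6, differed by -0.02 (95% interval -0.23 to 0.19), and Il24, of the interleukin-10 family, by -0.05 (95% interval -0.27 to 0.16). Csf3, the granulocyte colony-stimulating factor gene, read 4.68, 4.57, 4.83 and 4.89 log2 in the GR-/- arrays, against 4.62, 4.65, 4.51 and 4.61 in the GR+/+ arrays. GR-/- 25 and 26 were the highest of the 8, while GR-/- 17 was within the GR+/+ range, and the difference was 0.14 ± 0.09 (SE, adjusted p = 0.403), or 0.094 without GR-/- 26 and 0.078 with the muscle covariate. Csf2, which encodes the granulocyte-macrophage factor, differed by 0.09 (95% interval -0.23 to 0.42).

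Csf1, the gene of a growth factor that maintains macrophages, was read by 4 probe sets that did not give 1 answer. At the brightest the difference was -0.02 ± 0.11 (SE, adjusted p = 0.946), with groups overlapping throughout. At the third brightest, Csf1 read 7.69, 7.79, 7.89 and 7.61 log2 in the GR-/- arrays, against 7.38, 7.46, 7.20 and 7.43 in the GR+/+ arrays. There all GR-/- arrays lay above all GR+/+ arrays, and the difference was 0.38 ± 0.09 (SE, adjusted p = 0.0540) with adjustment over all probe sets. The remaining probe sets gave 0.16 and 0.30. After the deposited values were quantile-normalized again, the third brightest passed the threshold (adjusted p = 0.0482), and so it did with array weights (0.0204).

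The CXC chemokines that recruit neutrophils did not pass the threshold. Cxcl1, the main neutrophil attractant of keratinocytes, read 8.38, 8.10, 8.41 and 8.17 log2 in the GR-/- arrays, against 8.13, 8.30, 8.36 and 8.08 in the GR+/+ arrays. These ranges coincide, and the difference was 0.05 (95% interval -0.19 to 0.28) at a probe set whose name (_x_at) marks possible cross-hybridisation. Its other probe sets gave -0.13 and 0.15. Cxcl2 differed by -0.10 (95% interval -0.32 to 0.12) and Cxcl5 by 0.16 (95% interval -0.13 to 0.45), both at low values. Of the interferon-induced T cell attractants, Cxcl9 differed by -0.03 (95% interval -0.36 to 0.30) and Cxcl10 by 0.12 (95% interval -0.09 to 0.34).

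The homeostatic CXC chemokines Cxcl12, Cxcl14 and Cxcl16 had positive fold changes at every probe set. Cxcl12, which is made by dermal fibroblasts and acts through Cxcr4 to retain stem cells and leukocytes, read 10.46, 10.63, 10.61 and 10.43 log2 in the GR-/- arrays, against 10.49, 10.02, 9.86 and 10.43 in the GR+/+ arrays. The GR-/- arrays were close together, and GR+/+ 6 and 28 were low while GR+/+ 4 lay inside the GR-/- range. The difference was 0.33 ± 0.14 (SE, adjusted p = 0.225), and 0.22 without GR+/+ 28, with 0.33 ± 0.10 (SE, adjusted p = 0.0970) and 0.11 at the other probe sets. Cxcl14, a constitutive keratinocyte chemokine, differed by 0.11 ± 0.13 (SE, adjusted p = 0.685) at its brightest probe set and by 0.51 ± 0.14 (SE, adjusted p = 0.0775) at the other. That other probe set gave 10.41, 10.10, 10.64 and 10.76 log2 in the GR-/- arrays, against 9.94, 9.98, 10.14 and 9.81 in the GR+/+ arrays, so that GR-/- 17 overlapped with GR+/+ 28 and the other GR-/- arrays lay above all GR+/+ arrays. Cxcl16, a membrane-bound chemokine and scavenger receptor, read 7.48, 7.25, 7.72 and 7.78 log2 in the GR-/- arrays, against 7.36, 7.31, 7.35 and 7.34 in the GR+/+ arrays. Its GR+/+ values differed by little among themselves, GR-/- 17 was below them and the other GR-/- arrays above, and the difference was 0.22 ± 0.12 (SE, adjusted p = 0.324). It was 0.14 without GR-/- 26 and 0.035 with the muscle covariate. None of these genes passed at any probe set, except that the second brightest probe sets of Cxcl12 and Cxcl14 did with GR-/- 17 left out (adjusted p = 0.0353 and 0.0142) and with array weights.

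In the CC chemokine family, 7 of 11 members had positive fold changes and all 11 lay in the dim part of the range. Ccl2, the monocyte attractant MCP-1, read 6.43, 6.18, 6.29 and 6.65 log2 in GR-/- 5, 17, 25 and 26, against 6.05, 6.19, 5.76 and 5.87 in GR+/+ 4, 6, 28 and 29. GR-/- 17 was just below GR+/+ 6, and otherwise the GR-/- arrays were the higher ones. The difference was 0.42 ± 0.13 (SE, adjusted p = 0.106), a 1.34-fold difference. Without GR-/- 17 it was 0.49, with an adjusted p of 0.0541 over genes, and it passed over all probe sets (adjusted p = 0.0490). With array weights it passed over genes (adjusted p = 0.0372), and with the muscle marker mean as a covariate it was 0.25.

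Ccl11 encodes eotaxin, which attracts eosinophils. It read 5.72, 6.16, 6.16 and 5.86 log2 in the GR-/- arrays, against 5.73, 5.63, 5.70 and 5.59 in the GR+/+ arrays. GR-/- 17 and 25 were high, and GR-/- 5 lay at the highest GR+/+ value, so the groups overlapped. The difference was 0.32 ± 0.11 (SE, adjusted p = 0.145), and 0.60 (adjusted p = 0.430) with the muscle covariate. Ccl17, a ligand of the skin-homing receptor Ccr4, read 5.28, 5.26, 5.13 and 5.42 log2 in the GR-/- arrays, against 5.10, 5.20, 5.09 and 4.95 in the GR+/+ arrays, and the difference was 0.19 ± 0.09 (SE, adjusted p = 0.244). Its GR-/- 25 lay below GR+/+ 6, so these groups overlapped too. Ccl22, the other Ccr4 ligand, differed by -0.04 (95% interval -0.27 to 0.18).

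The macrophage inflammatory protein genes Ccl3 and Ccl4, which are induced in activated macrophages and mast cells, were uneven within GR-/- skin. Ccl3 read 4.53, 5.65, 6.80 and 6.58 log2 in GR-/- 5, 17, 25 and 26, against 4.44, 4.61, 4.75 and 5.77 in GR+/+ 4, 6, 28 and 29. It was high in GR-/- 25 and 26 and, less so, in GR+/+ 29 and GR-/- 17, while GR-/- 5 was as low as the lowest GR+/+ arrays. The difference, 0.995 ± 0.49 (SE, adjusted p = 0.279), was the largest of all members and had the widest interval, and it was 1.98 with the muscle covariate. Ccl4 was likewise highest in GR-/- 25 and 26, with 5.84, 5.84, 6.26 and 6.46 log2 in the GR-/- arrays, against 5.997, 5.64, 5.84 and 5.98 in the GR+/+ arrays. Its difference was 0.23 ± 0.16 (SE, adjusted p = 0.441), and 0.11 without GR-/- 26. The means of 9 macrophage markers were 7.99 to 8.68 in GR-/- and 8.38 to 8.99 in GR+/+ arrays, and those of 6 mast cell markers 10.10 to 10.57 in GR-/- and 9.92 to 10.26 in GR+/+ arrays, highest in GR-/- 25. The mast cell mean hides opposite signs, since 4 of its 6 markers had positive and 2 negative fold changes, from -0.49 to 1.33. Of these 6 markers 0 passed the threshold. Among the macrophage markers 1 fell, the scavenger receptor gene Cd163, with 5.89, 6.91, 5.57 and 5.44 log2 in the GR-/- arrays, against 7.94, 7.91, 8.28 and 8.22 in the GR+/+ arrays (-2.13 ± 0.29, SE, limma adjusted p = 0.0112). The other 8 did not pass. The part of these cells in the Ccl3 values was not tested.

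The remaining CC chemokines did not pass the threshold either. Ccl20, the epithelial attractant of Langerhans cell precursors, differed by -0.02 (95% interval -0.17 to 0.13) and the T cell attractant Ccl5 by -0.13 (95% interval -0.39 to 0.12). Ccl7 and Ccl8, relatives of Ccl2 that also attract monocytes, differed by 0.01 (95% interval -0.31 to 0.33) and 0.11 (95% interval -0.07 to 0.29). Ccl9, a rodent myeloid chemokine, was read by 2 probe sets of opposite sign, -0.17 ± 0.15 (SE, adjusted p = 0.571) and 0.35 ± 0.16 (SE, adjusted p = 0.252).

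Among these cytokines and chemokines, Tslp acts on dendritic cells and Ccl20 attracts precursors of Langerhans cells. The means of 6 markers of Langerhans and dendritic cells were 6.57 to 7.18 in GR-/- and 6.30 to 6.68 in GR+/+ arrays, highest in GR-/- 17. None of the 6 passed the threshold, and 2 were higher at an unadjusted p below 0.05, the antigen presentation genes Cd74 at 0.64 ± 0.21 (SE, adjusted p = 0.132) and H2-Aa at 0.98 ± 0.39 (SE, adjusted p = 0.194). Cd207, which encodes the langerin that defines Langerhans cells, was at -0.04 ± 0.10 (SE, adjusted p = 0.874). The part of these cells in the member values was not tested.

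**Figure D2:**
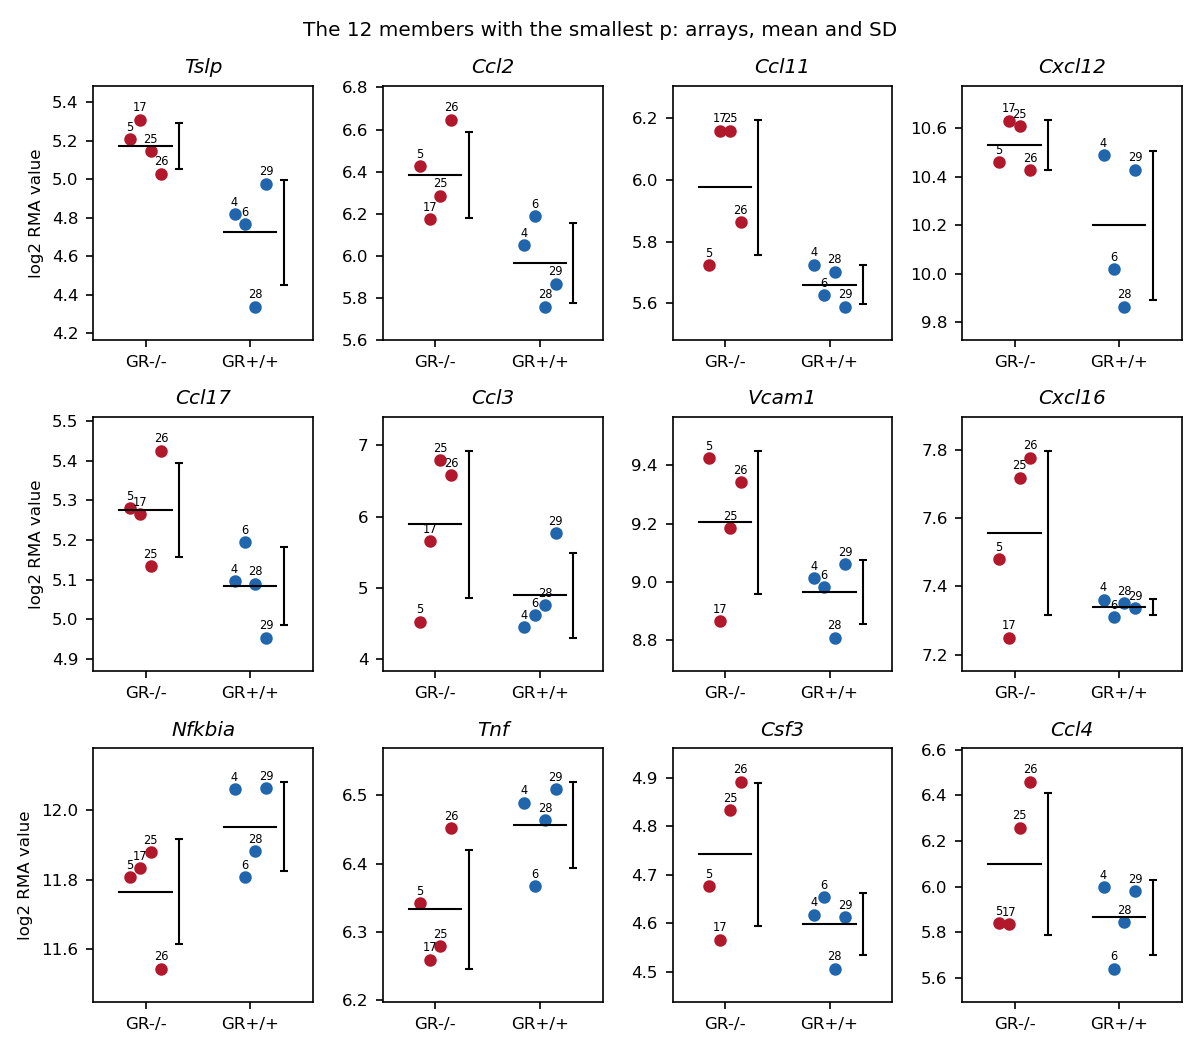
Log2 RMA values of the 12 members with the smallest p on the 4 GR-/- (red) and 4 GR+/+ (blue) arrays, numbered by label; horizontal lines are group means, error bars are SD, and each panel has its own y axis. The groups do not overlap in Tslp, and GR-/- 17 is the lowest of the GR-/- arrays in Vcam1 and Cxcl16.

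Vcam1 was the member with a probe set past the threshold. It encodes the vascular cell adhesion molecule that binds the integrin of lymphocytes and monocytes and is also made by dermal fibroblasts. Its brightest probe set gave 9.42, 8.87, 9.18 and 9.34 log2 in the GR-/- arrays, against 9.01, 8.98, 8.81 and 9.06 in the GR+/+ arrays, with GR-/- 17 inside the GR+/+ range and a difference of 0.24 ± 0.13 (SE, adjusted p = 0.315). The second brightest gave 8.76, 7.91, 8.87 and 8.98 log2 in the GR-/- arrays, against 7.56, 7.86, 7.57 and 7.72 in the GR+/+ arrays. Here GR-/- 17 was just above the highest GR+/+ array and the other GR-/- arrays were higher still. The difference was 0.95 ± 0.22 (SE, adjusted p = 0.0478), and at the third probe set it was 0.87 ± 0.21 (SE, adjusted p = 0.0513), both without overlap. Over all member probe sets, 1 of 68 was called, and it was higher (1.47%), against 2.22% of all probe sets called higher and 3.85% called in either direction. Without GR-/- 17 the second brightest differed by 1.19 (adjusted p = 0.00294), and without any 1 of the other 7 arrays, or after a further quantile normalization, it was not past the threshold. With the muscle marker mean as a covariate it was 0.42 (adjusted p = 0.783), and the brightest was -0.14, of opposite sign.

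The other adhesion genes did not pass the threshold with all arrays. Icam1, the ligand of leukocyte integrins, read 7.92, 8.73, 8.36 and 7.86 log2 in the GR-/- arrays, against 8.12, 8.30, 8.29 and 8.54 in the GR+/+ arrays. GR-/- 17 was the highest of the 8 arrays and GR-/- 26 the lowest, and the difference was -0.10 ± 0.19 (SE, adjusted p = 0.835). Selp, which encodes the P-selectin that starts leukocyte rolling, read 5.90, 7.21, 6.27 and 6.10 log2 in the GR-/- arrays, against 6.66, 6.39, 6.77 and 6.83 in the GR+/+ arrays. GR-/- 17 was again the highest, while the other GR-/- arrays lay below all GR+/+ arrays. With all arrays the difference was -0.30 ± 0.26 (SE, adjusted p = 0.568), and without GR-/- 17 it was -0.58 with an adjusted p of 0.0336. It was -0.14 without GR-/- 5, -0.21 to -0.39 without any other array, and 0.60, of opposite sign, with the muscle covariate (adjusted p = 0.652). Its other probe sets gave 0.16 and -0.04. Sele, which encodes the cytokine-induced E-selectin, differed by 0.00 (95% interval -0.25 to 0.25). Means of 7 endothelial markers were 8.29 to 8.44 in GR-/- and 8.27 to 8.79 in GR+/+ arrays, and 4 of the 7 were lower at an unadjusted p below 0.05, against 11.1% of all genes and 28.9%, in either direction, of genes at or above the median level, where all 7 lie. Their part in these values was not tested.

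Of the NF-kB subunits, Nfkb2 and Relb, which form the non-canonical dimer, had fold changes of -0.07 (95% interval -0.31 to 0.17) and -0.13 (95% interval -0.47 to 0.21). Nfkbia, the gene of IkB-alpha and a direct brake on NF-kB, is induced both by NF-kB and by glucocorticoids. It read 11.81, 11.83, 11.88 and 11.54 log2 in GR-/- 5, 17, 25 and 26, against 12.06, 11.81, 11.88 and 12.06 in GR+/+ 4, 6, 28 and 29 at its brightest probe set. GR-/- 26 was the lowest array, and GR+/+ 6 and 28 overlapped with the upper GR-/- arrays. The difference was -0.19 ± 0.10 (SE, adjusted p = 0.330), and -0.11 without GR-/- 26. All 5 probe sets of Nfkbia had lower means in GR-/- skin, with fold changes of -0.37, -0.48, -0.07 and -0.53 at the others in order of brightness, and 3 of them had an unadjusted p below 0.05. At the second brightest the groups did not overlap, with 10.89, 11.19, 11.17 and 10.68 log2 in the GR-/- arrays, against 11.32, 11.26, 11.53 and 11.28 in the GR+/+ arrays, and the adjusted p was 0.131. Without GR-/- 17 the third brightest passed the threshold (-0.60, adjusted p = 0.0378), and without GR+/+ 6 the fifth did (-0.75, adjusted p = 0.0240).

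The other brakes on the pathway were of mixed sign. Tnfaip3, which encodes the ubiquitin-editing enzyme A20, differed by 0.12 ± 0.17 (SE, adjusted p = 0.751) at its brightest probe set. Its other probe set gave 6.52, 6.49, 7.02 and 6.94 log2 in the GR-/- arrays, against 6.33, 6.39, 6.03 and 6.46 in the GR+/+ arrays, higher in every GR-/- array, and the difference was 0.44 ± 0.15 (SE, adjusted p = 0.126). Zfp36, the gene of tristetraprolin, which destabilises cytokine mRNAs and is also induced by glucocorticoids, differed by 0.10 (95% interval -0.33 to 0.52). Nfkbie gave -0.10 and 0.11 at its probe sets, and Socs1, an inhibitor of cytokine receptor kinases, 0.08 (95% interval -0.14 to 0.31).

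Socs3, the feedback inhibitor of interleukin-6 family signalling, had the widest spread among the inhibitors. It read 8.12, 9.13, 7.91 and 7.45 log2 in GR-/- 5, 17, 25 and 26, against 8.67, 8.07, 8.65 and 8.98 in GR+/+ 4, 6, 28 and 29. GR-/- 17 was the highest of all arrays and the other GR-/- arrays lay mostly below the GR+/+ ones, with GR+/+ 6 low. The difference was -0.44 ± 0.33 (SE, adjusted p = 0.505), and -0.52 and -0.09 at its other probe sets.

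**Figure D3:**
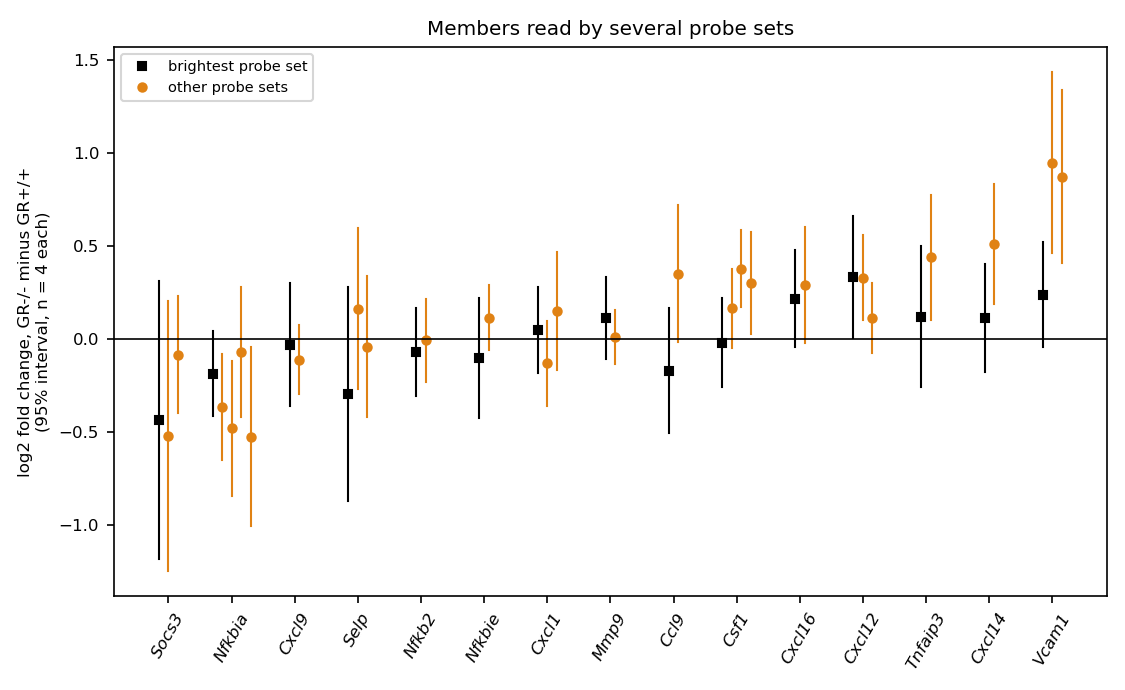
Log2 fold change (GR-/- minus GR+/+, y axis) with 95% intervals for each probe set of the 15 members read by more than 1, ordered by their mean; black squares are the brightest probe sets, orange points the others. All 5 probe sets of Nfkbia lie below 0 and all 3 of Vcam1 above it.

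Across the 15 members read by several probe sets, the sign was the same at every probe set for 10. These were Cxcl12, Cxcl14, Cxcl16, Mmp9, Tnfaip3 and Vcam1 with positive fold changes, and Cxcl9, Nfkb2, Nfkbia and Socs3 with negative ones. At an unadjusted p below 0.05, 11 of 68 member probe sets were higher (16.2%) and 3 lower (4.41%), against 11.8% and 10.2% of all probe sets. Groups did not overlap at 5 higher probe sets (7.35%, against 6.80% of all) and at 1 lower probe set (1.47%, against 5.82%). Probe sets of 1 gene read the same RNA and are not independent.

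The effector genes stood at low values in both genotypes, with all 5 below the median level. The matrix metalloproteinases, which degrade dermal matrix in wounds and inflammation, differed by 0.16 (95% interval -0.16 to 0.47) for Mmp3, 0.11 (95% interval -0.11 to 0.33) for Mmp9 and 0.05 (95% interval -0.16 to 0.25) for Mmp13. Nos2, the inducible nitric oxide synthase, differed by -0.08 (95% interval -0.27 to 0.11) and the acute-phase gene Saa3 by 0.04 (95% interval -0.14 to 0.23).

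Single arrays differed in which members they carried high. GR-/- 26 was the highest of the 8 arrays for 13 members, among them Csf2, Csf3, Cxcl14, Cxcl16, Ccl2 and Ccl4. GR-/- 17 was the highest for 10 others, including Icam1, Selp, Sele, Socs3, Cxcl5 and Mmp3, and the lowest for 9. GR+/+ 28 was the highest for 0 and the lowest for 6. The SD among GR-/- arrays exceeded that among GR+/+ arrays in 28 of 43 members (65.1%), against 51.8% of all genes. In GR-/- 17 the mean of 6 neutrophil markers was 7.31 log2, against 5.44 to 5.93 in the other GR-/- arrays and 5.67 to 6.72 in GR+/+ arrays. The granule genes Mpo and Elane were not higher on that array, whereas Camp, S100a8 and S100a9 read 8.21, 9.79 and 9.57, the highest of the 8. The part of these transcripts in the Icam1, Selp and Socs3 values was not tested.

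**Figure D4:**
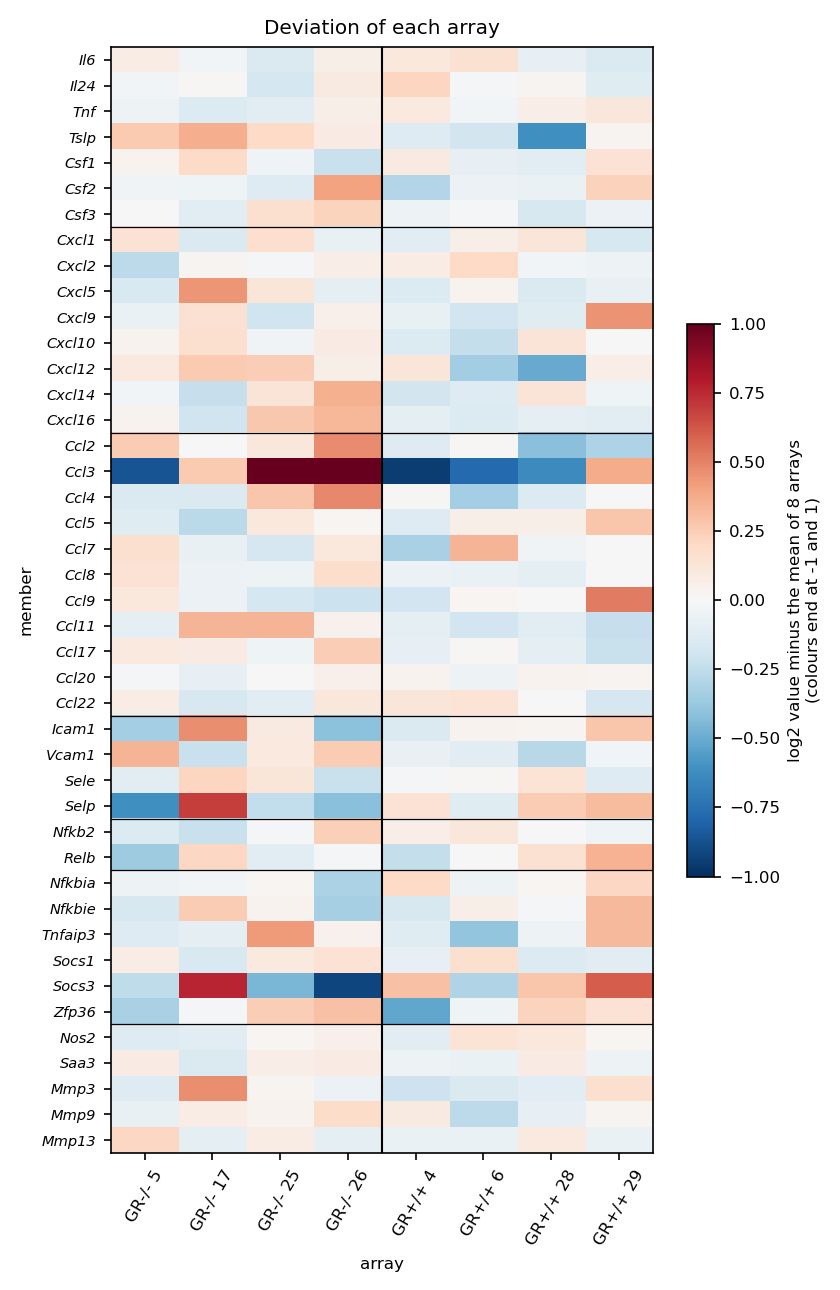
Deviation of each array (columns, GR-/- left of the vertical line) from the member's mean over 8 arrays, in log2; rows are the 43 members in role groups, and colours end at -1 and 1, which Ccl3 exceeds in GR-/- 25 and 26. GR-/- 17 is high for Socs3, Selp, Icam1 and Mmp3, which are not high in the other GR-/- arrays.

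The receptors and signalling genes around these members held single changes. Of all genes, 1.56% passed the threshold as lower and 1.40% as higher (2.96% in all). Of 20 measured chemokine receptors 0 passed the threshold, and the smallest adjusted p was that of Cx3cr1, the fractalkine receptor of macrophages, at 0.28 ± 0.11 (SE, adjusted p = 0.196). Cxcr4, the Cxcl12 receptor, had 0.28 ± 0.13 (SE, adjusted p = 0.243). Of 13 cytokine receptors 1 fell and 0 rose. This was Csf2rb, the beta chain shared by the receptors of interleukin-3, interleukin-5 and granulocyte-macrophage factor, which read 8.96, 9.52, 9.25 and 9.36 log2 in the GR-/- arrays, against 10.86, 10.46, 10.98 and 11.41 in the GR+/+ arrays. No GR-/- array came near the GR+/+ range, and the difference was -1.66 ± 0.20 (SE, adjusted p = 0.00721). It kept its call without any 1 array, and with the muscle covariate it was -1.27 (adjusted p = 0.398).

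Of 25 measured genes of NF-kB signalling 1 fell and 0 rose, where 1.56% and 1.40% of all genes did. At an unadjusted p below 0.05, 6 were lower and 1 higher, against 11.1% and 10.5% of all genes. However, 22 of the 25 lay at or above the median level. Of all genes at that level, 28.9% had such a p in either direction and 14.4% were higher. Irak1, a kinase below the interleukin-1 and Toll-like receptors, fell by 0.42 ± 0.09 log2 (SE, adjusted p = 0.0408), and lost its call without any 1 array except GR-/- 17. Of 15 other chemokines 0 passed, against 2.96% of all genes. The nearest was Pf4, a platelet and macrophage chemokine, at -0.43 ± 0.10 (SE, adjusted p = 0.0537), with every GR-/- array below every GR+/+ array. Ccl6, a myeloid chemokine of rodents, had 0.86 ± 0.34 (SE, adjusted p = 0.187), and without GR-/- 17 it passed at 1.22 (adjusted p = 0.0123). Among 9 leukocyte counter-receptors 0 passed, with Itgam, a subunit of the Icam1-binding integrin of myeloid cells, at 0.38 ± 0.11 (SE, adjusted p = 0.0977) and Selplg, the selectin ligand, at 0.24 ± 0.08 (SE, adjusted p = 0.140). The median fold changes of these lists lay between -0.04 and 0.09, beside -0.0045 for all genes.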

How the data were processed

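Dorsal skin RNA (4 GR-/- and 4 GR+/+ samples) was hybridised to Affymetrix whole-genome mouse expression arrays, 8 in all. The deposited values are log2 expression values made by the authors with RMA, per the submitters' processing notes, which give no version. They were used as deposited, without scanner files or detection calls, so the number of arrays limits the precision.

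Probe sets (45101) were named through the platform annotation. 34945 have 1 symbol, 932 several and 9160 none, and 64 controls were left out. Each gene was represented by the brightest of its single-symbol probe sets. Limma 3.58.1 (R 4.3.3, lmFit and eBayes, GR-/- minus GR+/+, no covariates) was fitted to all 45037 probe sets. From that fit, Benjamini-Hochberg adjustment was made over the probe sets of the 18193 genes and, separately, over all 45037 probe sets. The threshold was 0.05 and intervals were 95%. The procedure was tested on simulated data.

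Members and lists were chosen with earlier results of these data known. Values on every array are given for the 12 members with the smallest p, and pathway genes are named if past the threshold or, failing that, by smallest p. Arrays of Icam1, Selp, Socs3, Cxcl1, Cxcl14, Csf1, Tnfaip3 and Csf2rb, and the markers Cd163, Cd74, H2-Aa and Cd207, were added after their values were seen. Alternatives covered scaling, filter, prior, array weights, probe set choice, covariates, threshold and each array left out.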

Additional observations from a re-analysis of the deposited data

Results flagged for a closer look

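In 4 of 86 groups of member values (43 genes in both genotypes) 1 array stood clear of the other 3 by Dixon's test, and chance flags about 1 in 20 groups. For Saa3, GR-/- 17 was the lowest GR-/- array at 5.01 log2, with the others between 5.23 and 5.24, and GR+/+ 28 was the highest GR+/+ array at 5.24, with the others between 5.09 and 5.11. For Mmp13, GR+/+ 28 was the highest of its group at 3.65 log2, above 3.49 in the others. For Ccl20, GR+/+ 6 was the lowest of its group at 5.602 log2, with the others between 5.68 and 5.69. All these values lie in the dim part of the range, where RMA compresses differences.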

How the results depend on the processing

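With all arrays, 0 members were higher and 0 lower under every scaling, filter and prior tried. The exceptions for higher members were array weights with 1 (Ccl2), the probe set of highest variance with 1 (Vcam1) and the unadjusted threshold with 4. With each array left out in turn the number higher was 0, and the number lower 0 to 1 (Selp, without GR-/- 17). The members' median fold change of 0.047 was 0.12 with the muscle marker mean as a covariate, 0.094 at the probe sets of highest variance and 0.014 to 0.077 with each array left out. Of 232 values of the 12 named members, 1 reversed, that of Vcam1 with the muscle covariate (-0.14). Nr3c1 at its brightest probe set, -0.84 as reported, was -0.80 with that covariate and no longer past the threshold (adjusted p = 0.391). Of 43 members 25 changed sign under at least 1 alternative.

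Member probe sets called, 1 as reported, numbered 2 with the Eif2s3y covariate, 2 with the trended and robust prior, 7 at an adjusted p below 0.1, 9 with array weights, 14 unadjusted, 0 with the muscle covariate and 0 to 7 with each array left out. All genes called, 539 as reported, numbered 829 among genes at or above the median level, 884 with the mean of all probe sets, 1832 at the highest variance, 1944 with array weights, 1524 at an adjusted p below 0.1, 3936 unadjusted, 3 with the muscle covariate and 79 to 1640 with each array left out, the most without GR-/- 17. Pathway genes higher, 0 as reported, numbered 1 above the median level, 1 with the mean of all probe sets, 2 with array weights, 2 at an adjusted p below 0.1, 4 at the highest variance, 9 unadjusted and 0 to 1 with each array left out. Pathway genes lower, 6 as reported, numbered 0 with the muscle covariate, 14 unadjusted and 3 to 9 with each array left out. The cause of these shifts was not tested. No paired analysis was made, because the labels name no litters and the genotypes share no label numbers. Differences between litters could not be tested.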
